A study of Mus musculus with 202 samples.

Results

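The E-cadherin positive (Ecad+) fraction of a mouse pancreatic ductal adenocarcinoma line comprised 104 of the 202 single-cell libraries of the study. Its members were taken by the sort label alone, and no expression value was used to choose them. The line carries the strain label KPC, is male and originated from a liver metastasis. Cells were grown in DMEM with fetal bovine serum, detached with trypsin, stained with an anti-E-cadherin antibody and sorted into positive and negative fractions on a FACSAria. The other 98 libraries were the E-cadherin negative (Ecad-) fraction of the same line, which shares the genotype and medium with the Ecad+ fraction, and no drug is named for either. Cells were captured on the Fluidigm C1, a microfluidic chip that holds 1 cell per chamber. Their cDNA was amplified with the SMARTer kit, which primes on poly(A), and libraries were made with Nextera XT. The labels name no separate cultures or animals, so each fraction is 1 sample, no test between cells or fractions was made, and every spread below is a spread between cells of 1 sample.

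Library names have 3 different endings, whose meaning the labels do not give, and these divide the Ecad+ libraries into sets of 28, 39 and 37 (sets 1, 2 and 3). Every measure of spread or co-variation was computed inside each set. In 4 cases an Ecad+ library of set 3 and one of set 1 had a Pearson r of 0.993 to 0.994 over all genes, while no other pair exceeded 0.939. Each such pair was counted as 1 cell, which leaves 100 Ecad+ cells, and both libraries of a pair stayed in their sets. The sets therefore share 4 cells and are not independent repeats. Levels are in TPM, the transcripts of a gene scaled to a constant total per library, so depth is unknown. The number of genes above 0 stands in for it and ran from 8243 to 12759 per library, with set medians of 10461, 10747 and 10043. Transcripts of the 13 mitochondrially encoded genes took a median of 30.0% of each library's TPM (0.269% to 65.5%), with set medians of 29.7%, 44.0% and 23.2%. Because TPM sum to a constant, a library with a high mitochondrial share has lower TPM for its other genes. The number of genes above 0 and the mitochondrial share did not move together inside the sets (Spearman rho -0.0465, -0.00364 and 0.0363).

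E-cadherin, the product of Cdh1, is the calcium-dependent adhesion molecule of epithelial adherens junctions. Keratins 7, 8, 18 and 19 form the intermediate filaments of simple epithelia such as the pancreatic duct, and claudins and Epcam belong to the lateral membrane of the same cells. Cells of lines derived from pancreatic ductal tumours of KPC mice range from epithelial to mesenchymal in form. Division of such cells follows 2 waves of transcription. Genes for DNA replication rise in G1/S, and genes for the spindle, the anaphase-promoting complex and mitotic kinases rise in G2/M.

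The sort label was first checked against Cdh1, whose product was stained, and against the epithelial marker genes Krt7, Krt19 and Cldn7, which were not sorted on. Cdh1 (chromosome 8, 106603351 to 106670246 in GRCm38, plus strand) was found in 100 of 100 Ecad+ cells, a share whose exact (Clopper-Pearson) 95% interval is 96.4% to 100% and covers counting error only, and in 78 of 97 Ecad- cells. Its lowest, median and highest levels were 11.3, 25.7 and 67.8 TPM in set 1, 9.94, 40.8 and 130 in set 2, and 3.70, 31.2 and 75.8 in set 3. Ecad- libraries reached 58.7, 116 and 35.2 TPM in the 3 sets, so the 2 fractions overlapped in Cdh1 transcript in each set. Krt7 ran from 16.1 to 2162 TPM in set 1 with a median of 494, from 24.3 to 1946 in set 2 with a median of 498, and from 19.0 to 2146 in set 3 with a median of 607. Every Ecad+ library thus held the Krt7 transcript at a level above 0. Krt19 had medians of 827, 465 and 1035 TPM and never fell below 128 TPM. Cldn7, a claudin of tight junctions and the lateral membrane, was above 0 in 95 of 100 cells, with medians of 126, 52.5 and 110 TPM. Krt7 was also above 0 in 93 of 97 Ecad- cells and Krt19 in 83, so the presence of these keratins alone does not separate the fractions.

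The 4 genes differed in how evenly they were present. The coefficient of variation (CV, the SD over the mean) of Cdh1 was below the trend of genes of its level in each set, at 0.651, 0.891 and 0.671 times that trend. Krt7 lay at 1.66, 1.45 and 1.90 times the trend, and Krt19 at 1.46, 1.83 and 1.34 times. Epcam, which encodes an epithelial cell adhesion molecule, behaved differently from the other 4. It was above 0 in 46 of 100 cells (exact 95% interval 36.0% to 56.3%), and its median was 0. Its highest level was 242 TPM in set 1, 231 in set 2 and 216 in set 3. Cells with and without a listed Epcam level occurred in each set, in 11 of 28, 21 of 39 and 15 of 37 libraries.

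**Figure D1:**
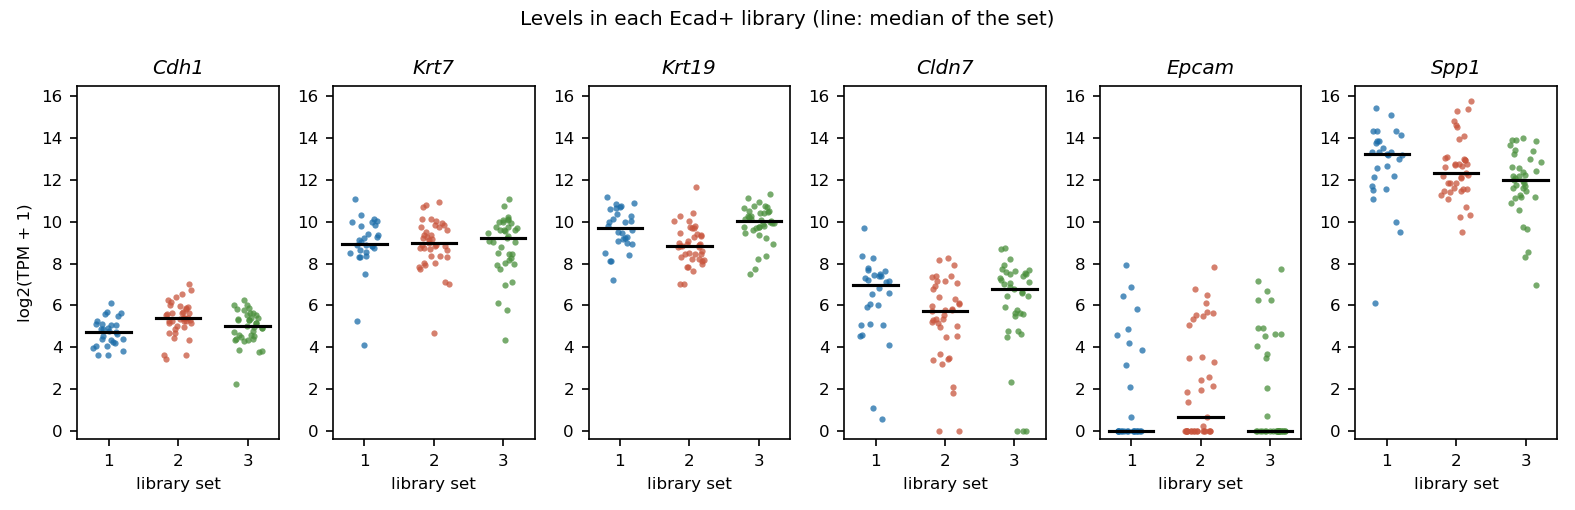
Levels of Cdh1, Krt7, Krt19, Cldn7, Epcam and Spp1 in each of the 104 Ecad+ libraries, as log2(TPM + 1) on the vertical axis, by library set on the horizontal axis; points are libraries and lines are set medians. Cdh1 forms a narrow band with medians of 25.7, 40.8 and 31.2 TPM, whereas Epcam is above 0 in only 46 of the 100 cells and Spp1 spans 68.1 to 56781 TPM.

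The epithelial genes did not move as 1 unit from cell to cell. Over the 12 of 26 epithelial genes above the floor (a mean of at least 20 TPM and a level above 0 in at least 25% of the libraries of each set), the median rho between genes was 0.20 in each of the 3 sets. All 4683330 pairs of the 3061 genes above the floor had medians of 0.15, 0.26 and 0.0671. The keratins were linked unequally. Krt8 and Krt19 had rho of 0.78, 0.68 and 0.64 in sets 1 to 3, and Krt8 and Krt18 of 0.52, 0.76 and 0.81. Krt7 and Krt18, both on chromosome 15 (101411043 to 101430313 and 102028180 to 102032027), had rho of 0.66, 0.67 and 0.77. The rho was lower between Krt7 and Krt8 (0.45, 0.49 and 0.62), between Krt7 and Krt19 (0.30, 0.31 and 0.41) and between Krt18 and Krt19 (0.24, 0.36 and 0.40). The rho of Cdh1 with Krt7 was -0.0301, -0.44 and -0.0261. With Krt19 it was 0.45 and 0.42 in sets 1 and 3 but 0.0773 in set 2. Among all genes above the floor the one most like Cdh1, by the lowest rho of the 3 sets, was Itfg3 at only 0.40. The named genes closest to Krt19 in that measure were Pafah1b3 (0.64), Krt8 (0.64), Apoa1bp (0.62), Clic1 (0.57) and Anxa4 (0.57). For Vim, the mesenchymal intermediate filament gene, the closest were Gapdh (0.47), Anxa2 (0.46) and Lgals3 (0.46).

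Claudin genes varied between cells as well. Cldn3, Cldn6 and Cldn7 were 3 of the 4 tight junction genes above the floor and all 3 were called variable, as defined below, against 3.82% of all genes above the floor, while the junctional adhesion molecule gene F11r was not. Cldn6 ran from 0 to 418 TPM with a median of 44.3, and Cldn3 from 0 to 297 with a median of 16.7. Of Epcam, Cldn3, Cldn6 and Cldn7, all 4 were above 0 in 35 cells, 1 was listed at 0 in 36, 2 in 25 and 3 in 4, and no cell was at 0 for all 4. Chosen after their values were seen, the closest genes to Epcam included Idi1 (0.41) and Sc5d (0.31), enzymes of sterol synthesis, and the closest to Cldn7 was S100a14 (0.44).

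Vim itself was present in each of the 100 cells, from 43.5 to 2037 TPM with a median of 390. It did not run against Cdh1 (rho 0.0361, 0.0593 and -0.0820) and co-varied with Krt8 from cell to cell (0.33, 0.70 and 0.48). Only 3 of the 23 mesenchymal genes reached the floor, namely Vim, S100a4 and Lgals1. S100a4, a calcium-binding protein gene used as a mesenchymal marker, was the only one of them called variable, at 0 to 2278 TPM with a median of 223. Markers of other cells were low in most cells. None of the genes of the 6 lists for immune cells, fibroblasts, endothelium, hepatocytes, acinar and endocrine cells and red blood cells reached the floor. The median summed level per cell was 0.166 TPM for the 15 immune genes (0 to 14.8), 0.118 for the 11 fibroblast genes (0 to 5.03), 7.44 for the 8 endothelial genes (0 to 61.5) and 0.372 for the 8 hepatocyte genes (0 to 218). It was 0 both for the 13 acinar and endocrine genes (0 to 24.2) and for the 6 red blood cell genes (0 to 24.3). Ptprc, Tyrobp, Pdgfrb, Col3a1, Pecam1, Cdh5, Alb, Cpa1 and Ins1 were listed at 0 in every Ecad+ cell. Other members of these lists were not. The endothelial genes Egfl7 (mean 12.8 TPM) and Vwf (mean 0.252 TPM) were above 0 in 68 and 71 cells. The hepatocyte gene Ttr was above 0 in 32 cells (up to 209 TPM) and the acinar gene Prss2 in 25 (up to 24.2 TPM).

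S100a6, a small calcium-binding protein, had the highest mean among named genes that are neither mitochondrially encoded nor ribosomal, 9870 ± 5386 TPM (SD between 100 cells), and ran from 1749 to 25661. It was above 0 in all 100 cells. Its set means of 10046, 5389 and 14570 TPM were lowest in set 2, the set with the highest mitochondrial share. Atp5j, a subunit of the mitochondrial ATP synthase, followed at 9500 ± 3415 TPM. Spp1 (osteopontin, a secreted phosphoprotein; chromosome 5, 104435118 to 104441050) came next at 8858 ± 10152 TPM. Tmsb4x, which binds actin monomers, reached 5831 ± 4484 TPM, and S100a11 5300 ± 1999 TPM. Ftl1 and Fth1, the chains of the iron store ferritin, had means of 4638 and 2314 TPM. The secreted chaperone Clu had a mean of 3183 TPM and Wfdc2, a secreted protease inhibitor of epithelia, one of 2481. Krt18 was the only keratin among the 30 named genes, at 1752 ± 1122 TPM, and Tm4sf4, a membrane tetraspan protein, had a mean of 1680 TPM. Lgals2, a galactose-binding lectin, closed the list at 1573 ± 1858 TPM.

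Together these 30 genes took a median of 10.4% of a library's TPM. A further 14.0% fell to 10135 gene models without a proper symbol or named pseudogenes, of which 12 were passed over among the top genes. Cytosolic ribosomal protein genes took 5.23%. mt-Atp8 alone took a median of 23.8%, against 30.0% for the 13 mitochondrially encoded genes together, so the mitochondrial share rests mostly on this 1 gene. Its mean was 252280 TPM, against 15271 for mt-Atp6. Whether that gap reflects the amount of RNA was not tested. The choice of summary mattered little for this list, since 27 of the 30 stayed with the median over cells in place of the mean.

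The sets themselves differed for some of these genes. Of the 3061 genes above the floor, 354 had set means at least 2 times apart, and the median ratio of the highest to the lowest set mean was 1.40. The highest mean lay in set 1 for 77 of them, in set 2 for 105 and in set 3 for 172. Lgals2 had set means of 1727, 484 and 2578 TPM. Gsta1 and Gsta4, alpha-class glutathione transferases that detoxify lipid peroxidation products, were lower in set 2 as well. Gsta1 ran from 0.338 to 6812 TPM in set 1 (median 625), from 0 to 1428 in set 2 (median 20.7) and from 0 to 3934 in set 3 (median 653). Gsta4 had medians of 1315, 167 and 1608 TPM. The ranges of the 3 sets overlapped for both genes. Ube2c and the splicing gene Snrpe had their highest set mean in set 2, at 773 TPM against 345 and 460, and at 2561 against 978 and 1282. After each library was rescaled without mitochondrially encoded and ribosomal protein genes, the set means of Gsta4 were 3411, 790 and 3153, so set 2 stayed lowest. What distinguishes the sets is not in the labels, and its part in these values was not tested.

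Genes variable between cells were found by their CV. A gene was called variable when its CV was at least 1.5 times the trend of CV against mean level in each of the 3 sets. By this rule 117 of 3061 genes were called, 3.82% of those above the floor, and 103 of them were also called when the highest library of each set was left out for each gene. Single sets called 333, 293 and 323 genes. Just inside the threshold lay Pla2g7 at a lowest ratio of 1.501, and just outside it Cdk1 at 1.49993. The 25 genes with the largest lowest ratio, among those also called without the highest library, had lowest ratios from 2.12 to 5.28.

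Sprr1a, a precursor of the cornified envelope of stratified epithelium, was the most variable. It was above 0 in 83 of 100 cells, with a median of 57.7 TPM and a maximum of 12478, and its CV was at least 5.28 times the trend. S100a7a, a related epidermal calcium-binding protein, ran from 0 to 784 TPM with a median of 22.9. Il1rn, the secreted antagonist of the interleukin-1 receptor, ran from 0 to 4307 TPM with a median of 229. In each of these genes most cells lay low and a few very high.

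Spp1 was the only gene both among the 30 most abundant and among the 25 most variable. Its lowest, median and highest levels were 68.1, 9571 and 44344 TPM in set 1, 737, 5218 and 56781 in set 2, and 125, 4043 and 16591 in set 3. Its CV was 2.24, 2.79 and 2.55 times the trend. The closest genes to Spp1, an anchor added after its values were seen, were Rbp4 (lowest rho 0.55) and Sepp1 (0.51), both secreted carriers, of retinol and selenium, and the cytokine Mif (0.47). Ly6a, which encodes the surface protein Sca-1, ran from 0 to 6709 TPM with a median of 916, and its relative Ly6c1 from 0 to 1554 with a median of 39.1. Apoc2, the apolipoprotein that activates lipoprotein lipase, ran from 0 to 4054 TPM with a median of 104. Cst9, a cystatin, was above 0 in 64 cells with a median of 19.6 TPM and a maximum of 1115.

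Nupr1, a small chromatin protein induced by stress, ran from 0.169 to 1078 TPM with a median of 66.0. Mt1 and Mt2, neighbouring genes for zinc-binding metallothioneins on chromosome 8, had medians of 192 and 2.19 TPM and maxima of 6885 and 472. Eif4ebp1, the inhibitor of cap-dependent translation, had a median of 88.9 TPM and a maximum of 1023. Bnip3 and Aldoc, a mitophagy receptor and a glycolytic aldolase, both induced by low oxygen in many cells, had medians of 13.7 and 24.8 TPM and maxima of 668 and 3171. Ankrd1, a target of the YAP coactivator, ran from 0 to 835 TPM with a median of 60.3. Of the 6 YAP targets above the floor 4 were called variable, against 3.82% of all genes, namely Ankrd1, Ctgf, Cyr61 and F3, and the 2 that were not were Anxa1 and Anxa3.

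The other named variable genes were Vps39, Hist1h2bc, Ifitm2, Crip1, Hist2h2aa1, Pdzk1ip1 and Ugt2b34. Vps39 had a median of 0.505 TPM and a maximum of 2879, so its mean of 149 rested on few cells. The 10 most even genes included Mrpl35, of the mitochondrial ribosome, Snrpc, of the spliceosome, Ube2n, a ubiquitin-conjugating enzyme, and Acp1, a phosphatase. Their CV lay below the trend in each set. Ube2n, for instance, had a mean of 54.8 ± 19.5 TPM and was above 0 in all 100 cells.

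**Figure D2:**
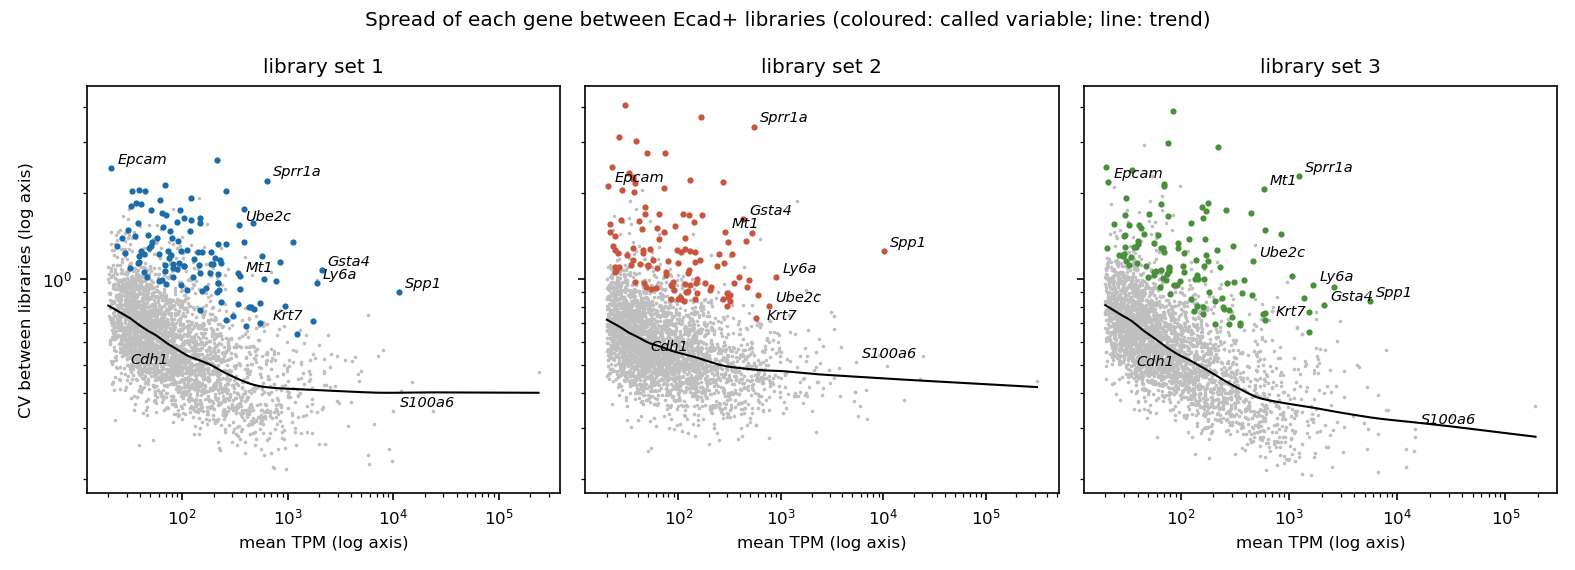
CV between libraries against mean TPM for the 3061 genes above the floor, both on log axes, 1 panel for each library set; coloured points are the 117 genes called variable in all sets, grey points the others, and the line is the trend. Spp1 and Sprr1a lie far above the trend in each panel, while Cdh1 lies on or below it.

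The most closely co-varying list was that of G2/M. Of its 57 genes 36 were above the floor, with a median rho of 0.78, 0.70 and 0.75 between them in sets 1 to 3. The member Pttg1 ran against the others, with a mean rho of -0.26 to them. Of these 36, 4 were called variable, against 3.82% of all genes. They were Ccnb1 (cyclin B1), Cdc20 (an activator of the anaphase-promoting complex), Aurka (a mitotic kinase) and Ube2c (the ubiquitin-conjugating enzyme of that complex). The bases before the starts of these 4 genes are shown because they are the members of the strongest co-varying list that were also called variable. The sequences are from RefSeq (GRCm38.p6), the 200 bases before the annotated start, 5′ to 3′ on the gene's strand. Capitals mark CCAAT and the letters TTTGAA of the cell cycle homology region, each searched on both strands in the 250 bases before the start. A match on the other strand reads ATTGG or TTCAAA. The windows are chr13:100786487-100786686, minus strand for Ccnb1, chr4:118437344-118437543, minus strand for Cdc20, chr2:172370571-172370770, minus strand for Aurka and chr2:164769729-164769928, plus strand for Ube2c.
Ccnb1: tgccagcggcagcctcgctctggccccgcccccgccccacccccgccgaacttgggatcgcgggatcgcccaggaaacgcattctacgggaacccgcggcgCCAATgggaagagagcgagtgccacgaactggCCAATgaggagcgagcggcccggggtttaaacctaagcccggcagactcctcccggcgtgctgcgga
Cdc20: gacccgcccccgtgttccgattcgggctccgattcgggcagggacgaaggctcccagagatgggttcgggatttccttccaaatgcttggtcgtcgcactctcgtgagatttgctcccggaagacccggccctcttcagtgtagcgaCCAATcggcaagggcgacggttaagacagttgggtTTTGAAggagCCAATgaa
Aurka: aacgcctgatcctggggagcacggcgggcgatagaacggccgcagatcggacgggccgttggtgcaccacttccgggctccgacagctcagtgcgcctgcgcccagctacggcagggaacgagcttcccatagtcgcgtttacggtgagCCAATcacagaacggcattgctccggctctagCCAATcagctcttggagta
Ube2c: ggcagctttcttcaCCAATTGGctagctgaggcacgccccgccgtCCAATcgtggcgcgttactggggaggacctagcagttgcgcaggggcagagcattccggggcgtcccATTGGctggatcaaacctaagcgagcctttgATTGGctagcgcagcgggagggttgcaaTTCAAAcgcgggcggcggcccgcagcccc

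Each of the 4 windows held CCAAT at least 2 times, with 2 matches in Ccnb1, Cdc20 and Aurka and 6 in Ube2c, of which 5 lie in the bases printed and a neighbouring pair overlaps. No CCAAT match overlapped a TTTGAA match. Of all 32851 windows of this length 33.8% held CCAAT and 10.1% held it at 2 or more positions. TTTGAA was found in the windows of Cdc20 and Ube2c and in 16% of all windows. These matches describe the letters only, and no binding was measured.

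Ube2c was above 0 in 84 of 100 cells and reached 2430 TPM. Its lowest, median and highest levels were 0, 56.5 and 1820 TPM in set 1, 0, 780 and 2430 in set 2, and 0, 219 and 1911 in set 3. Ccnb1 had set medians of 51.0, 279 and 78.4 TPM and a maximum of 996. Cdc20 had set medians of 14.0, 104 and 17.1, and Aurka of 7.63, 104 and 46.8. For all 4 the highest set median lay in set 2. By the lowest rho of the 3 sets, the genes closest to Ube2c were Aurka (0.89), Kif20a (0.87), Nusap1 (0.85), Cdca3 (0.83), Birc5 (0.82), Cenpf (0.82), Tpx2 (0.80) and Cenpa (0.80). Tpx2 and Nusap1 act on the spindle, Cenpf and Cenpa at the centromere, and Kif20a in cytokinesis. None of the 4 genes was listed at 0 in 68 cells, and all 4 were at 0 in 6.

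The G2/M score, the mean log2(TPM + 1) over the 36 genes, fell into 2 separate ranges. Libraries scored from 1.26 to 2.74 or from 3.93 to 7.61 in set 1, from 1.57 to 2.48 or from 5.40 to 7.74 in set 2, and from 1.29 to 2.28 or from 3.47 to 7.35 in set 3. A score under 3, a value placed after the scores were seen, was found in 12 of 28, 6 of 39 and 12 of 37 libraries. These are shares of 42.9% (exact 95% interval 24.5% to 62.8%), 15.4% (5.86% to 30.5%) and 32.4% (18.0% to 49.8%). Over cells, 29 of 100 scored under 3, and 5 lay between 2.5 and 4. Libraries under 3 had a lower median number of genes above 0 in each set, with 9913.5, 10311 and 9631 against 11010.5, 10844 and 10167. Their median mitochondrial shares were 26.3%, 24.5% and 25.1% against 30.9%, 47.8% and 22.5%. The part of depth and of the mitochondrial share in the score was not tested. Inside the upper range alone, the median rho between G2/M genes was 0.58, 0.49 and 0.40. The ranges were cut on the mean of these same genes, which by itself lowers rho between them inside 1 range.

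The replication genes formed a related programme. Of the 45 G1/S genes 24 were above the floor, with median rho of 0.65, 0.50 and 0.69. Members with a high mean rho to the others included Mcm3 of the replicative helicase (0.68), Rfc5 of the clamp loader (0.67) and Rrm2 and Tyms, enzymes of nucleotide synthesis (both 0.67). Hells, a chromatin remodeller, and Chaf1b, a histone chaperone, were the 2 of 24 called variable, against 3.82% of all genes. Tyms ran from 0 to 682 TPM with a median of 145. Across all libraries the G1/S and G2/M scores had rho of 0.72, 0.50 and 0.57. In the upper range of the G2/M score alone the rho was 0.28, 0.19 and -0.31, and in the lower range it was 0.66, 0.83 and 0.87 over 12, 6 and 12 libraries. Cutting on the G2/M score narrows its spread, which can lower rho by itself. The part of the step between the ranges in the pooled values was not tested.

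Other lists co-varied as well. In all, 20 of the 27 lists with at least 5 genes above the floor had a median rho above that of all gene pairs in each of the 3 sets. Nucleolar ribosome assembly genes had rho of 0.63, 0.63 and 0.52, led by Ncl (nucleolin), Nhp2 and Nop56, which act on ribosomal RNA. Glycolysis genes had 0.55, 0.74 and 0.46, led by Pkm and Gpi1, and 1 of 11, Aldoc, was called variable, against 3.82% of all genes. Cholesterol and fatty acid synthesis genes had 0.40, 0.62 and 0.49. Their leading members Sc4mol, Fdps and Fdft1 encode steps of the sterol pathway, and Sc4mol, at 23.6 to 2027 TPM, was the 1 of 17 called variable, a share near that of all genes. Lysosome and autophagy genes had 0.49, 0.58 and 0.35, with Sqstm1 called variable.

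Integrated stress response genes, the targets of the factor ATF4, had rho of 0.58, 0.57 and 0.28, and 5 of 19 were called variable, against 3.82% of all genes. These were the asparagine synthetase Asns, the serine synthesis enzymes Phgdh and Psph, Nupr1 and Eif4ebp1. Asns ran from 0 to 1195 TPM with a median of 61.5, Phgdh from 0 to 3416 with a median of 192, and Psph from 0 to 651 with a median of 22.4. Phgdh and Psat1, neighbouring steps of serine synthesis, had rho of 0.89, 0.76 and 0.63. Atf4 itself was not called variable, at 0 to 655 TPM with a median of 59.7. Ddit3, the stress factor CHOP, was above 0 in 85 of 100 cells but lay below the floor. ER chaperone genes co-varied as well (0.49, 0.53 and 0.27), led by Pdia6, Manf and Calr, and 0 of 17 were called variable. The 250 bases before the start of Asns held 1 match of the amino acid response letters TGATGNAA, a run found in 3.45% of all windows on either strand, while those of Phgdh and Psph held none. It is printed because Asns is the textbook gene of this response, with the match in capitals (chr6:7693210-7693409, minus strand, GRCm38.p6).
Asns: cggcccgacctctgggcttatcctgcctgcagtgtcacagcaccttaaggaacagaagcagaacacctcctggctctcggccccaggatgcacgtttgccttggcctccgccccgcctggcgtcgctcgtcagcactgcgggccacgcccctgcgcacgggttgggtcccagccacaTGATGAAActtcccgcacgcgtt

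At the other end, 7 of the 27 lists were not above all pairs in each set. They were the epithelial, YAP target, MAPK feedback, integrin and laminin, histone, cyclin and CDK inhibitor, and pancreatic duct and tumour lists. The last had rho of only 0.0662, 0.0765 and 0.0223 over 11 genes, so Spp1, Clu, Muc1, Msln and Tspan8 varied largely apart from each other. Interferon response genes were absent from the comparison, as 0 of 36 in the table reached the floor.

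**Figure D3:**
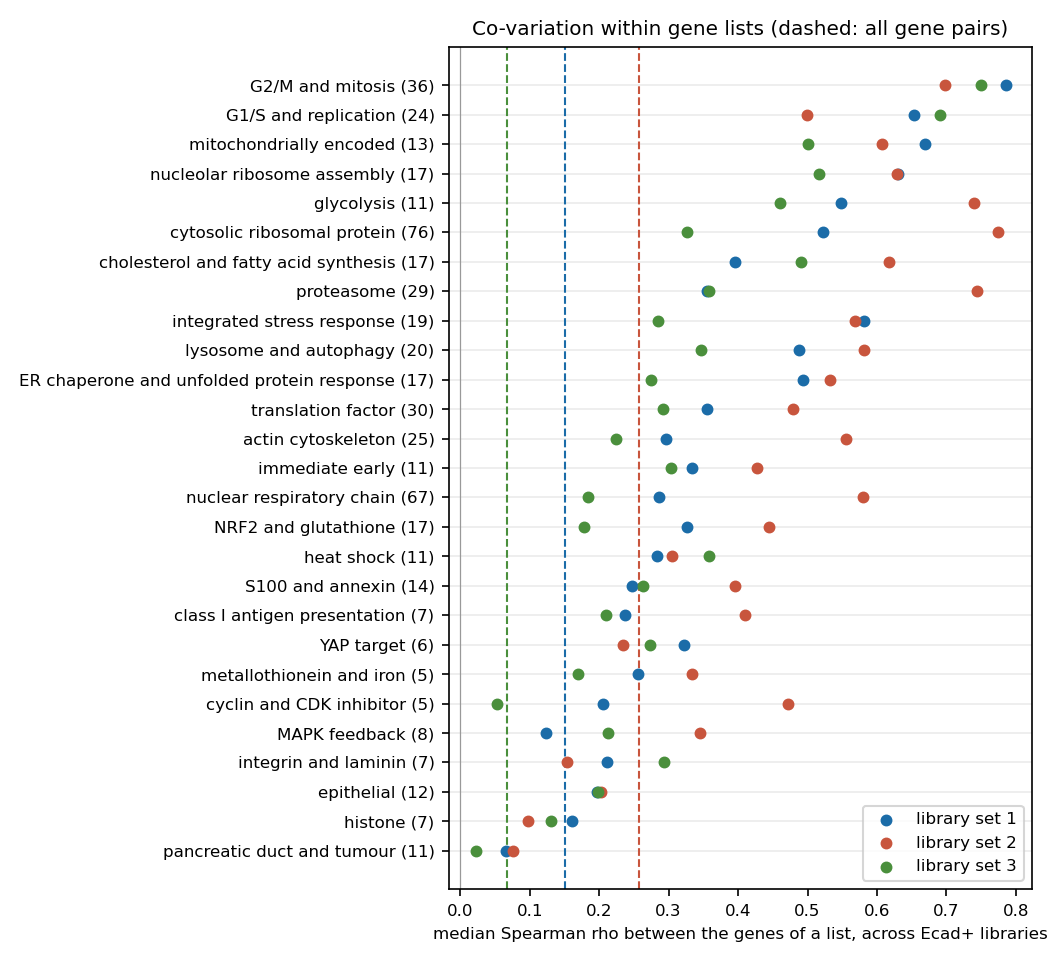
Median Spearman rho between the genes of each list (horizontal axis) for the 27 lists with at least 5 genes above the floor (number in brackets), with 1 point for each library set; dashed lines are the medians of all gene pairs, 0.15, 0.26 and 0.0671. G2/M and G1/S genes lie furthest to the right, and the pancreatic duct and tumour list furthest to the left.

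Clustering of the 117 variable genes by the lowest of their 3 set rho gave 6 groups of at least 5 genes, 35 genes in all. The groups were found in the same libraries in which their rho is given, so these values describe them and are not a test. Their number depended on the settings and went from 0 at a threshold of 2 times the trend to 10 without library set 2. Group 2 was mitotic and included Depdc1a, Casc5, Ube2c, Aurka, Ccnb1 and Cdc20, with a median rho of 0.80, 0.46 and 0.78. Group 4 held Hells, Chaf1b, D17H6S56E-5 and 2 unnamed models, and the replication genes Lig1, Asf1b, Gmnn and Gins2 followed it most closely outside the variable set.

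Group 5 joined the 2 glutathione transferases Gsta1 and Gsta4 with the cystatins Cst9 and Cst3 and the mitochondrial carrier Ucp2, at 0.62, 0.47 and 0.55. Gsta1 and Gsta4, both on chromosome 9 (78230656 to 78242684 and 78182774 to 78209349), had rho of 0.89, 0.81 and 0.75. Group 1 held Gstm1, a glutathione transferase, Sult1c2, a sulfotransferase, Ugt2b34, a glucuronosyltransferase, the selenium carrier Sepp1, Calml4, Ddt and AW112010, at 0.53, 0.55 and 0.44. The mean log2 levels of groups 1 and 5 moved together (0.58, 0.86 and 0.44). Both ran against the number of genes above 0, group 1 at -0.36, -0.41 and -0.32 and group 5 at -0.29, -0.44 and -0.17, and the part of depth was not tested.

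Group 3 combined Mt1, Mt2, Sqstm1, Eif4ebp1, Prr13 and Hist1h2bc, at 0.45, 0.46 and 0.45. Sqstm1 encodes the autophagy receptor p62, and the autophagosome gene Map1lc3b was among the genes outside the variable set that followed this group. Sqstm1 had set medians of 209, 75.8 and 104 TPM and a maximum of 2862. Group 6 held Asns, Phgdh and Psph with Nop56 and Setd6, at 0.55, 0.48 and 0.52, and Psat1 and Mthfd2, of serine synthesis and mitochondrial folate metabolism, followed it. In the Ecad- libraries the genes of group 6 had a median rho of 0.19, 0.26 and 0.29, and those of mitotic group 2 had 0.67, 0.51 and 0.50. Group 6 ran against the mitochondrial share (-0.70, -0.68 and -0.29), as did group 3 (-0.38, -0.62 and -0.19). Group 6 also ran with the number of genes above 0 (0.37, 0.39 and 0.56), and the part of depth was not tested. Since TPM sum to a constant, the part of the mitochondrial share in these 2 groups cannot be told apart from a change of their own.

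**Figure D4:**
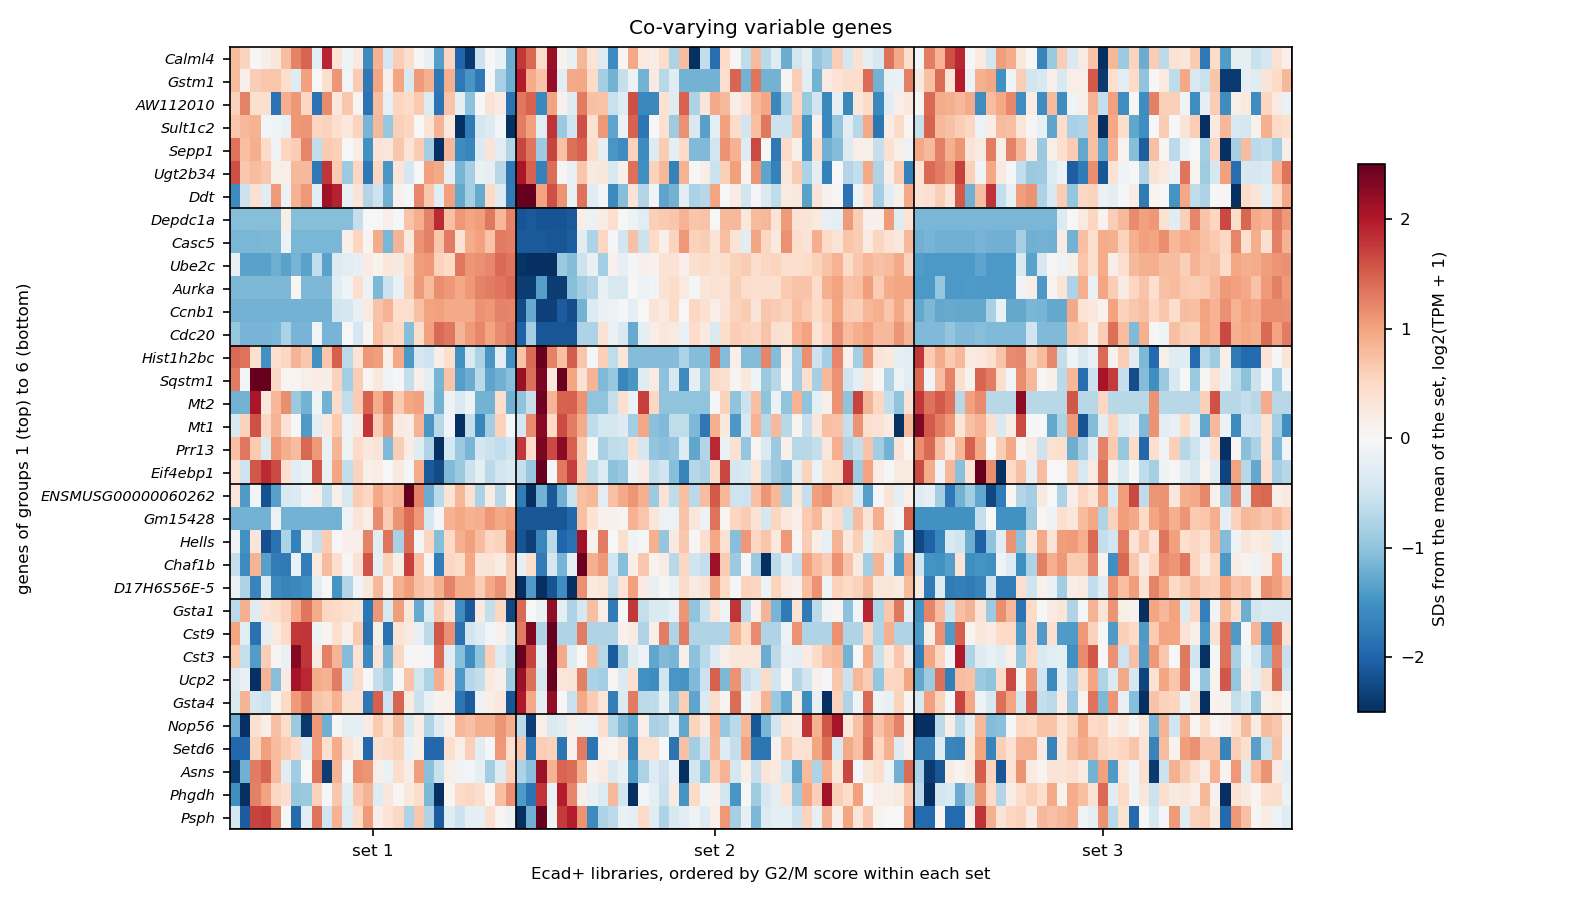
Levels of genes of the 6 groups (rows, groups divided by horizontal lines) in the 104 Ecad+ libraries (columns, ordered by G2/M score inside each set), as SDs of log2(TPM + 1) from the set mean; red is above and blue below. The mitotic genes of group 2 change from blue to red along the score, the G2/M score being under 3 in the first 12 of 28, 6 of 39 and 12 of 37 libraries of the sets.

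The mitotic and lysosomal programmes ran in opposite directions in 2 of the 3 sets. Across all libraries the G2/M and lysosome scores had rho of -0.69 in set 1, -0.10 in set 2 and -0.61 in set 3. Inside the upper range of the G2/M score, however, the rho was -0.29, 0.45 and -0.27 over 16, 33 and 25 libraries. Inside the lower range it was -0.32, 0.54 and 0.15 over 12, 6 and 12 libraries. Inside the ranges the sign differed between sets. A cut on the G2/M score narrows its spread and can lower rho by itself, and the part of the step was not tested. Mitotic group 2 and metallothionein group 3 had pooled rho of -0.62, -0.23 and -0.66. Inside the upper range these were -0.77, 0.19 and -0.37, and inside the lower range -0.34, 0.43 and 0.0420. Set 1 was thus the one set in which the sign stayed negative in both ranges, for both relations.

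Among other pairs of scores, heat shock and translation factor scores had rho of 0.83, 0.95 and 0.80. The MAPK feedback and YAP target scores, whose members respond to growth factor and mechanical signals, had rho of 0.68, 0.77 and 0.65, and 0.60, 0.78 and 0.65 without the cells with a G2/M score under 3. They were 0.64, 0.57 and 0.64 with the number of genes above 0 and the mitochondrial share regressed out. The pairs of scores named here have no background rho of all pairs of scores beside them. A score averages several genes, so its rho cannot be set against the medians of single gene pairs. The MAPK feedback and YAP target lists were both among those not above all gene pairs in each set. Whether their scores are linked more closely than other scores was not tested. The mitochondrially encoded score ran against the nuclear respiratory chain score (-0.76, -0.86 and -0.39). With the number of genes above 0 and the mitochondrial share regressed out, that rho became -0.0331, -0.19 and 0.31. The mitochondrial share is the summed level of the mitochondrially encoded genes themselves. Regressing it out thus takes away 1 side of the comparison, and the adjusted values cannot decide the relation.

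**Figure D5:**
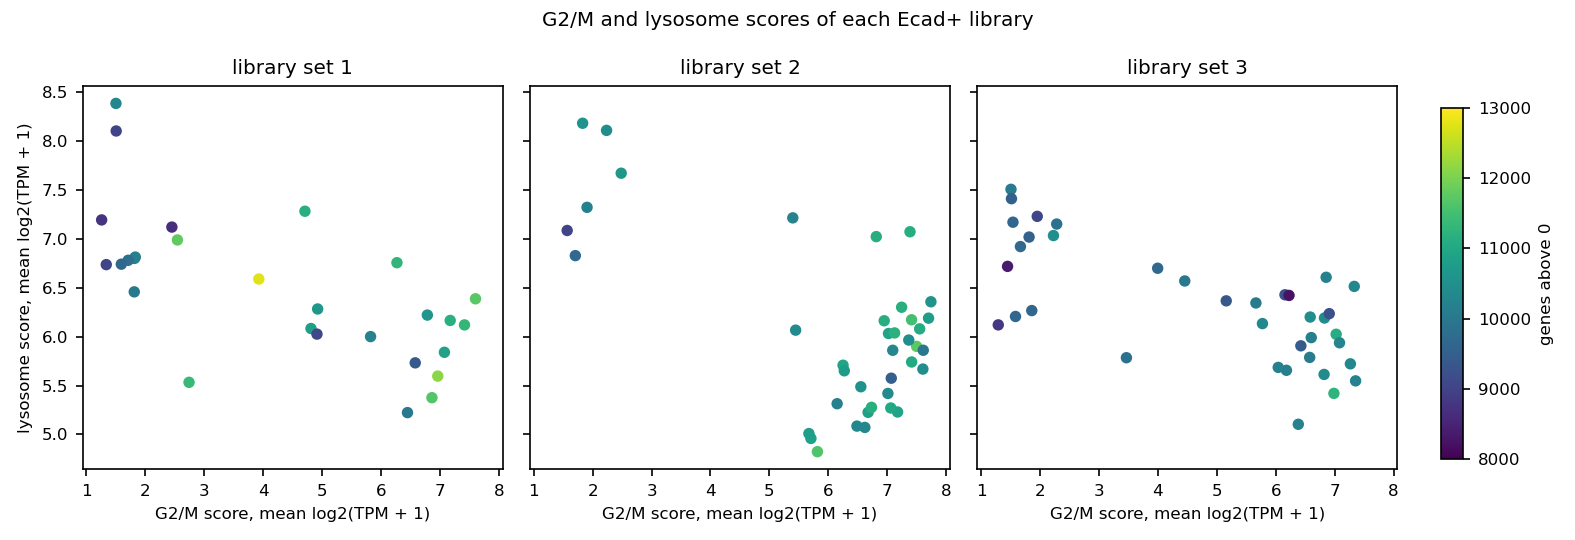
Lysosome score against G2/M score, each the mean log2(TPM + 1) of its genes above the floor, for the libraries of sets 1, 2 and 3; points are libraries, coloured by the number of genes above 0. The G2/M scores leave a gap between 2.74 and 3.93 in set 1, between 2.48 and 5.40 in set 2 and between 2.28 and 3.47 in set 3.

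Against the Ecad- cells the same genes showed where the Ecad+ fraction stood apart. Cdh1 had a mean of 37.9 TPM against 16.1, Krt7 of 650 against 162, Krt19 of 899 against 290 and Cldn7 of 111 against 21.7. For Cdh1 the log2 ratio of means was 0.62, 1.05 and 1.96 in sets 1 to 3, and for Krt7 it was 1.28, 2.04 and 3.23. The ranges of single libraries overlapped for each of the 4. Of the 3061 genes above the floor, 32 were at least 2 times higher in Ecad+ in each set (1.05%) and 91 at least 2 times lower (2.97%). That floor was set on the Ecad+ libraries alone. A gene below it in Ecad+ could not be counted as lower, however high it was in Ecad-. Ddit3 was such a gene, at a mean of 31.1 TPM in Ecad+ against 562 in Ecad-. The 30 top genes included 0 of either kind, and of the 117 variable genes 10 were higher and 10 lower. The median log2 ratio of set means was -0.13, -0.38 and -0.15 over all genes. After rescaling without mitochondrially encoded and ribosomal protein genes, 3971 genes lay above the floor. Over these the median was 0.0357, 0.0443 and 0.10, and the counts were 75 higher and 52 lower of 3971. Median mitochondrial shares in the Ecad- sets were 21.2%, 12.6% and 0.194%, below those of Ecad+. Without cells with a mitochondrial share under 1% the counts were 28 higher and 17 lower, so the lower count rested mostly on such cells.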

How the data were processed

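RNA-seq was run on single cells of a murine pancreatic tumour line that had been sorted on E-cadherin. The authors deposited 1 table of 28987 genes by 202 libraries on a log2 scale. Its values, raised to the power of 2 less 1, sum to between 933711 and 987134 per library, and so were read as log2(TPM + 1). Per the submitters' processing notes FastQC 0.11.5, kallisto and the build mm10 were used. Another 8 columns of per-library values matched no sample and were not used. The log2 values were turned back into TPM, and libraries that agreed above an r of 0.97 were averaged for counts over cells. Spread was the CV against a lowess trend (fraction 0.3) of log CV on log mean, and co-variation was Spearman's rho, both inside each of the 3 library sets. Variable genes were clustered by average linkage at a distance of 0.7. Ratios between fractions used a pseudocount of 1 TPM. Named genes were Cdh1, Krt7, Krt19 and Cldn7, the 30 highest means, the 25 most variable and the 10 most even. Leading or variable members of each of 35 lists and members of each group were named as well. Unnamed gene models were passed over, and some items that the rule names are not reported here. Members and lists were chosen with earlier results of these data known. Depth is unknown because TPM keep none, so precision is given only as spread between cells. Python 3.11.15, numpy 2.4.6, pandas 2.3.3, scipy 1.17.1 and statsmodels 0.14.6 were used. The measures were also run on simulated log-normal values. Those had no zeros, no constant total per library and no cells shared between sets, so that run does not cover these features of the data. Alternatives changed the scale, floor, threshold, cells and sets. The rule also asked for the neighbours of Ddit3, which lay below the floor, and of Hmgcs1, which was not analysed here, while Krt7, Cldn7, Epcam and Spp1 and the G2/M score limit of 3 were added after values were seen.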

Additional observations from a re-analysis of the deposited data

How the results depend on the processing

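Depth is unknown in TPM, so low and absent levels cannot be told apart, and each fraction is 1 sample. No paired analysis was possible because no result comes from a test between samples and library numbers do not pair cells. Of the 30 top genes, 27 to 30 stayed under every alternative. The 117 variable genes, of 3061 above the floor, became 210 of 3971 after rescaling without mitochondrially encoded and ribosomal protein genes (114 shared). They became 236 of 3324 without library set 2, 227 of 6117 with a floor of 5 TPM and 73 of 1609 with a floor of 50 TPM. At 2 times the trend they were 34 of 3061. These counts thus change with the number of genes above the floor as well. SD of log2 values called 113, of which 60 were shared. The number of groups, 6, went to 10 without set 2 and to 3 with a floor of 5 or of 50 TPM, without the highest library, by SD of log2 values, or with genes above 0 and the mitochondrial share regressed out. It was 2 without cells with a G2/M score under 3 and 0 at 2 times the trend. Between 18 and 25 lists lay above all pairs, against 20. The counts against Ecad-, 32 higher and 91 lower, were 17 and 57 with a pseudocount of 10. They were 75 and 52 after rescaling, of 3971 genes then above the floor, and 88 and 475 with no floor. The floor was set on Ecad+ libraries alone, so leaving it out lets in genes low in Ecad+ and high in Ecad-. The lower count was 17 without cells with a mitochondrial share under 1%. As means of the 3 set values, the rho of the cyclin and CDK inhibitor list changed sign after rescaling (-0.0267) and with the 2 measures regressed out (-0.0395). So did the mitochondrially encoded and nuclear respiratory chain scores with the 2 measures regressed out (0.0301), and the G2/M and glycolysis scores without cells with a G2/M score under 3 (0.143). For the respiratory scores, 1 of the 2 measures is the summed level of the mitochondrially encoded genes themselves, so that change of sign cannot be read. The cause was not tested in the other cases. Of the other list medians under the alternatives, 233 moved by less than the spread between sets and 60 by more. Of the top genes' mean levels 190 moved by less than 1 SD between cells and 20 by more. Of the 25 named variable genes 17 were still called without cells with a G2/M score under 3, 14 with a floor of 50 TPM, 13 by SD of log2 values and 24 without the 10% of cells with the fewest genes. Those lost had fallen below the floor, except by SD of log2 values and for Eif4ebp1, whose lowest ratio was 1.41 without cells with a G2/M score under 3. The settings on groups, on library sets, on paired libraries between fractions and on G2/M scores were chosen after seeing the data.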
